A study of Homo sapiens with 4 samples.

Results

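The immediate early transcription factor genes examined here were JUN, JUNB, FOS, FOSL1, EGR1 and MYC. The data on them are the H3K9ac regions that lay within 10 kb of the start of each gene, at hg19 positions chr1:59249785 for JUN, chr19:12902310 for JUNB, chr14:75745481 for FOS, chr11:65667997 for FOSL1, chr5:137801181 for EGR1 and chr8:128748315 for MYC. The genes and starts were fixed by name and position, and the genes were chosen with earlier results of these data known. These windows held 25 of the 26828 regions called in the control library and 41 of the 39303 called in the RBBP4 library. The regions come from chromatin immunoprecipitation and sequencing of histone H3 acetylated at lysine 9 (H3K9ac) in the human glioblastoma line T98G (passage 4), an established line. All cells were transduced with lentivirus, with a control shRNA construct (shNT) or one that targets RBBP4 (shRBBP4), and were grown in medium with fetal bovine serum. There is 1 H3K9ac library per shRNA, so every difference below is between 2 libraries, has no replicate check and carries no p-value. Sequencing depth is unknown for both lists. RBBP4 itself was not measured here, and cell identity was not checked, because region lists do not measure expression.

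Immediate early genes are transcribed within minutes of a stimulus such as serum or a growth factor, without new protein synthesis. JUN and JUNB encode basic leucine zipper proteins of the JUN family, and FOS and FOSL1 (FRA-1) encode their FOS family partners. JUN-FOS pairs form the AP-1 transcription factor. EGR1 encodes a zinc finger factor induced by serum through serum response elements, and MYC encodes a basic helix-loop-helix factor that drives growth and proliferation. H3K9ac marks nucleosomes beside the starts of active genes. RBBP4 is a histone-binding subunit of several chromatin complexes, among them histone deacetylase complexes, polycomb repressive complex 2 and chromatin assembly factor 1.

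The promoters are shown because no called region held any of the starts. Regions lay on both sides of the start in both libraries at JUN, FOSL1 and MYC, and of these only JUN has a sequence below. RefSeq promoter sequences, each with 250 bases before the RefSeq start and 50 from it on, were matched by symbol for 4 of the 6 genes. FOSL1 and MYC had no entry. The sequences run from 5′ to 3′ on the gene's strand and come from build GRCh38.p14, at chr1:58783998-58784297 (minus strand), chr19:12791236-12791535 (plus strand), chr14:75278578-75278877 (plus strand) and chr5:138465229-138465528 (plus strand). These positions are not on the scale of the hg19 positions of the regions, and the RefSeq start need not be the base used as the start above. Capitals mark the TATA box motif TATAAA, the motif TGACG (the core of a cAMP response element, which reads CGTCA on the other strand) and the CArG box, the 10-letter core of a serum response element.
JUN: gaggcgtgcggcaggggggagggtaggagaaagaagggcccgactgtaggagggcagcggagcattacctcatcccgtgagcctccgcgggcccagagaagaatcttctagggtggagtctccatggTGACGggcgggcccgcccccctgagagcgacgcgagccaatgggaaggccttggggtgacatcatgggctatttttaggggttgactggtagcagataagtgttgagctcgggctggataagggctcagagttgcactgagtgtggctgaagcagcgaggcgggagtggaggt
JUNB: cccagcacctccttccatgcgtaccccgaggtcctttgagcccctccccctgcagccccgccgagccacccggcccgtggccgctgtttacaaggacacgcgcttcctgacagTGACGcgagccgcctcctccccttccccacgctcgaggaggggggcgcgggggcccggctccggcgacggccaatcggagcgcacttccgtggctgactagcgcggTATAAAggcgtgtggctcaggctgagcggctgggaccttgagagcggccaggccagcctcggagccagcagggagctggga
FOS: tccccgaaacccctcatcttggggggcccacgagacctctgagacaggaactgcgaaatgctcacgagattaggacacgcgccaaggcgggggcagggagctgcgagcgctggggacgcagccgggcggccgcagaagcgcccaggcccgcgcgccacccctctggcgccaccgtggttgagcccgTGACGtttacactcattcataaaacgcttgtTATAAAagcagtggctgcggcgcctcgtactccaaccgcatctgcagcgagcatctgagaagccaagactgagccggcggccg
EGR1: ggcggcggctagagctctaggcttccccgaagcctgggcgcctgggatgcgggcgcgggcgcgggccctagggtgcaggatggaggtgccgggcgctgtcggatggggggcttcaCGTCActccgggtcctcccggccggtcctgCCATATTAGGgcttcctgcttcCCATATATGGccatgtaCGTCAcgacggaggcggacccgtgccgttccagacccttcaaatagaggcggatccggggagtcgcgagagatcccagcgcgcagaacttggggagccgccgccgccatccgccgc

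All 4 promoters held TGACG on at least 1 strand, against 25% of the 27305 RefSeq promoters of the same length. In JUN it began 123 bases before the start, in JUNB 137, in FOS 64 and in EGR1 135 and 66. The EGR1 promoter alone of the 4 held the CArG box, with matches beginning 105 and 83 bases before the start, and 1.29% of all promoters held it. TATAAA began 33 bases before the start in FOS and 31 in JUNB, and 12.0% of all promoters held it. The full cAMP response element TGACGTCA was in none of the 4 promoters and in 1.98% of all, and the AP-1 motif TGANTCA was in none of the 4 and in 7.76% of all. The Sp1 motif GGGCGG was in JUN and FOS and in 44.6% of all promoters, and GCGNGGGCG, the motif of EGR factors, was in EGR1 and in 9.28% of all. Both strands were searched for exact matches to these 7 motifs, and TGACG is part of TGACGTCA. Near matches were not counted, such as tgacatca in JUN, which differs from TGACGTCA by 1 letter. Of 16 other immediate early genes, 13 had a promoter sequence, and 7 of these held TGACG and 1 (SRF) the CArG box. A match describes letters and not a bound site, and the windows end before more distant elements. The 4 promoters had 62.0% G and C in JUN, 64.7% in FOS, 69.3% in EGR1 and 71.0% in JUNB, against a median of 58.3% over all promoters. They held 16 CpG pairs in JUN, 29 in JUNB, 30 in FOS and 33 in EGR1, against a median of 14.

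In shNT, 5 of the 6 genes had an H3K9ac region within 10 kb of the start, and in shRBBP4 all 6 had. FOS was the gene without a region in shNT, and its shRBBP4 call ended in lists of equal length and in the higher-scoring 50% of each list. Among 15240 tiles of 20 kb that held a region of either list, 28.9% held regions of shRBBP4 alone. The same counts held within 1 kb of the start. No start was inside a called region in either library. Together the windows held 10.1 kb of called sequence in shNT and 16.1 kb in shRBBP4, a ratio of 1.60. Over both whole lists the ratio was 1.51 (7.89 and 11.92 Mb), so the genes together stood close to the difference between the lists. Regions at the genes had a median width of 266 bp in shNT and 261 bp in shRBBP4, against 210 and 213 bp over the whole lists. Score is the authors' value per region, whose scale the files do not state, and it is used here only as a percentile within its own list. The median percentile of the regions at these genes was 51.2 in shNT and 51.8 in shRBBP4, and in each library 2 regions stood at percentile 90 or above.

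**Figure D1:**
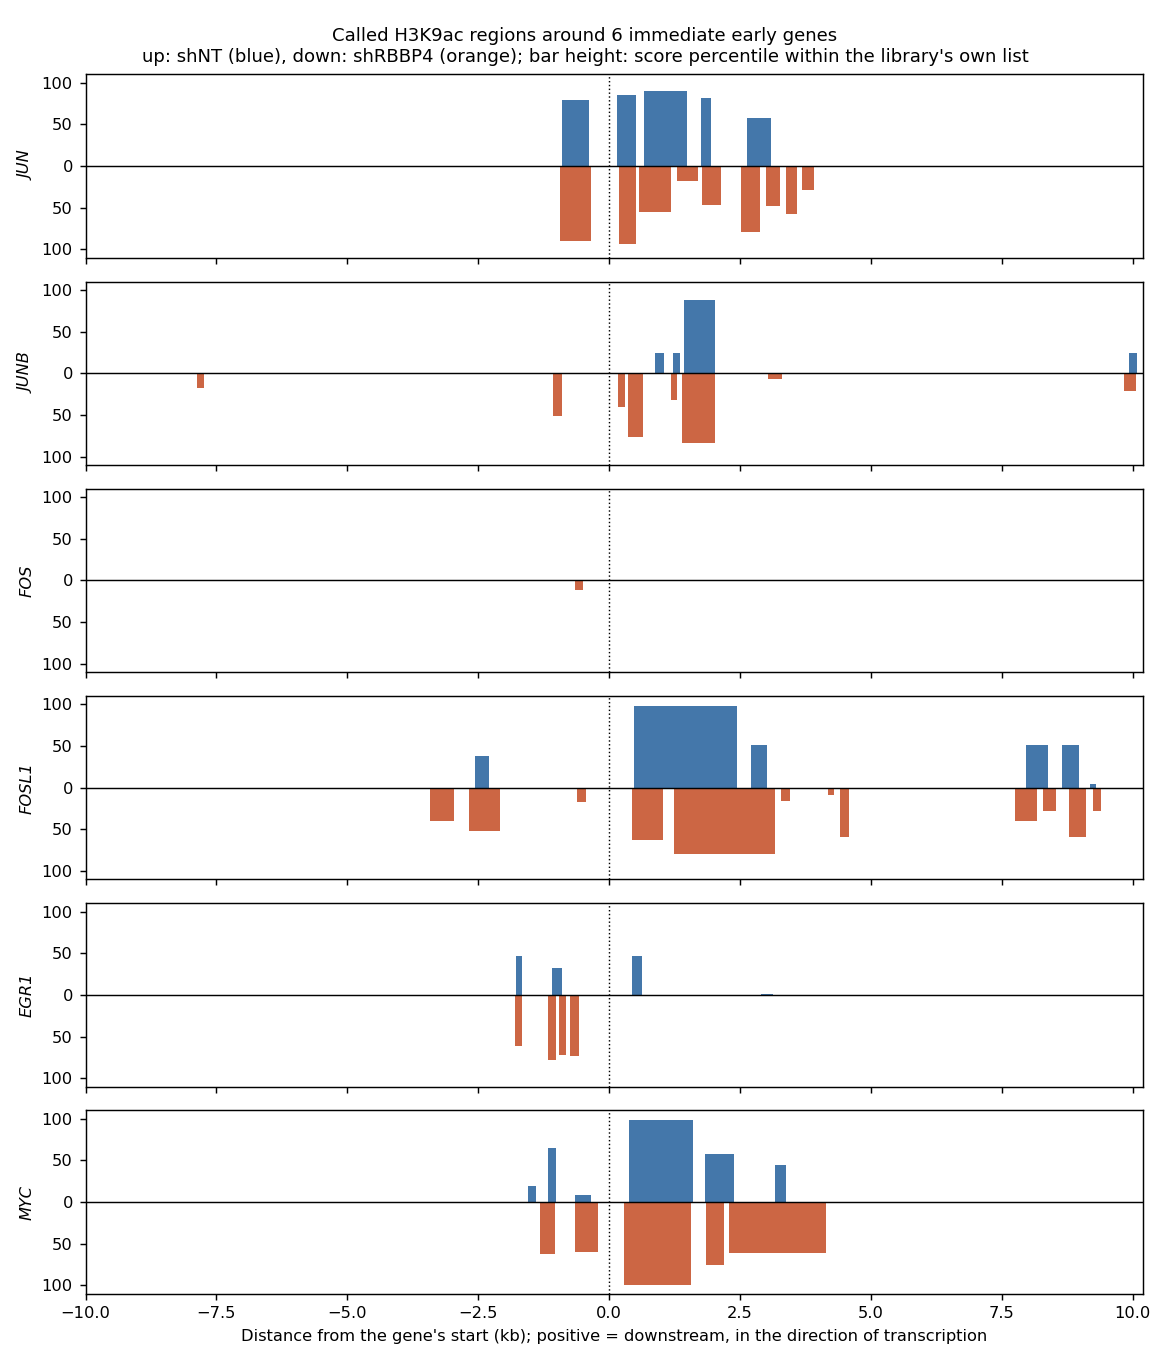
Called H3K9ac regions by distance from the start of each gene (kb, positive in the direction of transcription), with shNT drawn upward and shRBBP4 downward and the bar height giving the score percentile within the library's own list. No bar crosses the start at 0, FOS has a single low bar in shRBBP4, and the weakest regions, such as those of EGR1 at percentile 1.6 and of MYC at 0.1, are barely visible.

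JUN, the founding member of the JUN family, had H3K9ac regions on both sides of its start in both libraries, reaching farther downstream in shRBBP4. In shNT there were 5 regions covering 2360 bp, and in shRBBP4 10 regions covering 3594 bp, a covered-length ratio of 1.52. In the higher-scoring 50% of each list the ratio was 0.896, so the excess in shRBBP4 lay in the lower-scoring 50%. All 5 shNT regions overlapped an shRBBP4 region, and 86.7% of the bases covered in shNT were also covered in shRBBP4. The upstream flank was nearly the same in both, from 906 to 380 bp before the start in shNT (percentile 79.2) and from 934 to 339 bp in shRBBP4 (percentile 89.9). The region next to the start on the downstream side was at chr1:59249282-59249643 in shNT, at percentile 84.8, and at chr1:59249277-59249598 in shRBBP4, at percentile 93.9, the highest of the JUN window in that library. The highest in shNT was the next one downstream, chr1:59248292-59249119, 828 bp wide and at percentile 89.8. The shRBBP4 regions over the same stretch stood at percentiles 55.3 and 17.7. The farthest shNT region ended 3087 bp downstream and the farthest shRBBP4 region 3902 bp downstream. The 3 shRBBP4 regions without an overlapping shNT region, at percentiles 28.4, 57.1 and 0.9, all lay within 1 kb of one.

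JUNB, a JUN family member that often restrains JUN, shared its strongest region between the libraries, while the regions nearest to its start were called in shRBBP4 alone. In shNT there were 4 regions covering 988 bp within the window, and in shRBBP4 8 regions covering 1894 bp, a ratio of 1.92. The strongest region lay at chr19:12903736-12904340 in shNT (605 bp, percentile 87.8) and at chr19:12903705-12904326 in shRBBP4 (622 bp, percentile 83.2), beginning 1426 and 1395 bp downstream of the start. The shNT region nearest to the start began 880 bp downstream, at percentile 24.8. In shRBBP4, regions from 162 to 297 bp and from 362 to 654 bp downstream stood at percentiles 40.5 and 76.5, and neither overlapped an shNT region. Upstream, shNT had no region within 10 kb, and shRBBP4 had one from 1069 to 898 bp before the start (percentile 51.8) and one from 7862 to 7747 bp before it (percentile 17.7). HOOK2 overlaps JUNB in the RefSeq gene table and PRDX2 is its next protein-coding neighbour. At the far edge of the window, both libraries had a weak region, from 9927 to 10087 bp downstream in shNT (percentile 24.8) and from 9830 to 10068 bp in shRBBP4 (percentile 21.2). The next shRBBP4 region, just outside, began 10146 bp downstream at percentile 59.7. Without annotation of the build, no region was assigned to a neighbouring gene.

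FOS, the partner of JUN in AP-1, had the least covered sequence of the 6 genes in both libraries. In shNT it had no region, and in shRBBP4 it had 1 region of 149 bp, chr14:75744836-75744984, from 645 to 497 bp before the start. This region stood at percentile 11.5 of its list. With the shRBBP4 list cut to the length of the shNT list, it was no longer present. The surroundings of FOS were also without regions in shNT. The nearest shNT regions ended 102.2 kb upstream (percentile 70.3) and began 707.2 kb downstream (percentile 37.7), which left 809 kb without a region. In that stretch shRBBP4 had 9 regions covering 1.29 kb, with a median percentile of 32.0 and a highest of 89.9. Of 26805 stretches between neighbouring shNT regions, 777 were at least as long. These 777 held a median of 2.0 shRBBP4 regions and a highest number of 22, and 57 of them held 9 or more. Within 50 kb of FOS, outside the window, shRBBP4 had 3 regions, at percentiles 11.5, 66.3 and 32.0, beginning 20.3 kb upstream and 15.1 and 17.0 kb downstream.

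FOSL1, which encodes the FOS family protein FRA-1, had the most covered sequence of the 6 genes in both libraries. In shNT 6 regions covered 3405 bp, and in shRBBP4 12 regions covered 5352 bp, a ratio of 1.57. Within 2 kb of the start the ratio was 0.992, so the covered length differed mainly farther out, while the positions of the regions also differed near the start. All 6 shNT regions overlapped an shRBBP4 region. Most of the signal lay downstream of the start. The shNT region chr11:65665555-65667531 was 1977 bp wide, ran from 466 to 2442 bp downstream and stood at percentile 97.8 by score and 99.9 by width. The same stretch was held in shRBBP4 by a region of 595 bp at percentile 62.7 and one of 1919 bp, chr11:65664832-65666750, at percentile 79.6 by score and 99.8 by width. The strongest FOSL1 region thus stood lower in the shRBBP4 list than in the shNT list, although it was about as wide. Upstream of the start, shNT had 1 region of 266 bp (percentile 37.7), and shRBBP4 had 3, the nearest of them from 623 to 451 bp before the start at percentile 17.7. A further group of regions, at least 7754 bp downstream and present in both libraries, lay toward CCDC85B, the next protein-coding gene in the RefSeq table, with 3 regions in shNT (percentiles 4.4 to 51.2) and 4 in shRBBP4 (percentiles 28.4 to 59.7).

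EGR1 had weak to middle-ranked regions on both sides of its start in shNT and upstream regions alone in shRBBP4. In shNT 4 regions covered 751 bp, 318 bp upstream and 433 bp downstream of the start. In shRBBP4 4 regions covered 603 bp, all upstream, a covered-length ratio of 0.80. Within 2 kb of the start the ratio was 1.16, since the farther downstream region of shNT lay outside. Both libraries had a region about 1.7 kb before the start, chr5:137799396-137799518 in shNT at percentile 46.5 and chr5:137799379-137799525 in shRBBP4 at percentile 61.3. Closer to the start, shNT had 1 upstream region, from 1098 to 904 bp before it (percentile 32.0), and shRBBP4 had 3, between 1171 and 576 bp before it, at percentiles 77.9, 71.8 and 73.2. Downstream, shNT had regions from 431 to 630 bp (percentile 47.2) and from 2902 to 3134 bp (percentile 1.6), and shRBBP4 had no region within 1 kb of either. The highest percentile was 47.2 in shNT and 77.9 in shRBBP4. All 8 regions were from 123 to 233 bp wide, against medians of 210 bp in shNT and 213 bp in shRBBP4 over the whole lists. Of the bases covered at EGR1 in shNT, 34.6% were covered in shRBBP4, the lowest share of the 5 genes with regions in both libraries.

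MYC had the highest-ranked region of the 6 genes in both libraries. It lay just downstream of the start, at chr8:128748692-128749911 in shNT (1220 bp) and at chr8:128748591-128749874 in shRBBP4 (1284 bp), and stood at percentile 98.9 of both lists. Both libraries had 6 regions, and each region overlapped one of the other library. The regions covered 2579 bp in shNT and 4519 bp in shRBBP4, a ratio of 1.75. Of the bases covered in shNT, 92.9% were also covered in shRBBP4, the highest share of the 5 genes. The difference in length came largely from the downstream end, where a region of 220 bp in shNT (percentile 44.7, from 3165 to 3384 bp) faced one of 1852 bp in shRBBP4 (percentile 61.2, from 2287 to 4138 bp). Upstream, 3 regions in each library lay at similar places. The one nearest to the start ran from 646 to 356 bp before it in shNT, at percentile 8.4, and from 647 to 221 bp in shRBBP4, at percentile 59.7.

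**Figure D2:**
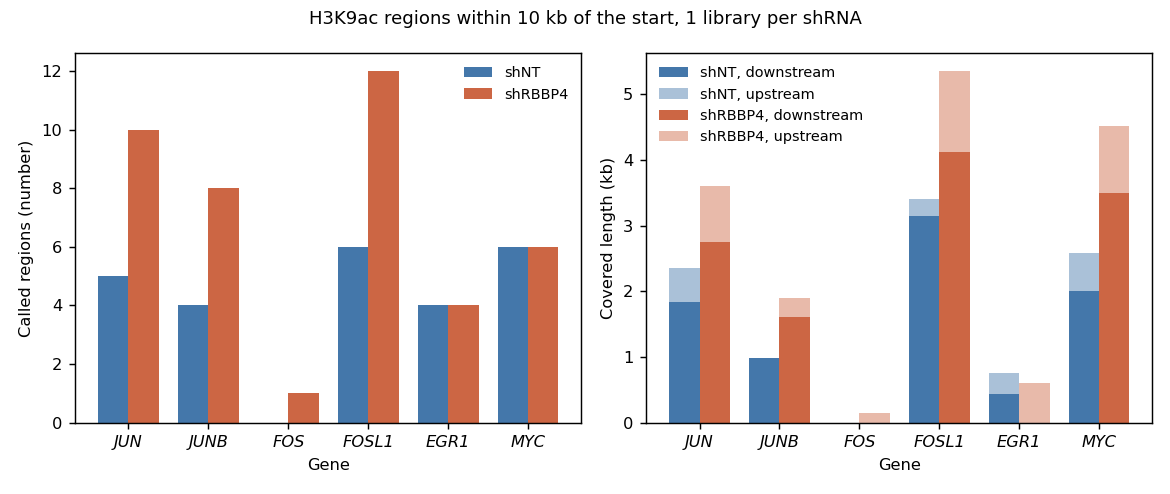
Number of called H3K9ac regions (left) and covered length in kb, split into the parts downstream (dark) and upstream (light) of the start (right), within 10 kb of each start, for the 1 library of each shRNA. JUN, JUNB and FOSL1 had 2 times as many regions in shRBBP4, whereas EGR1 and MYC had equal numbers in both libraries. The ratio of region numbers was 1.64 over the genes together and 1.46 over the whole lists. Some shNT regions at JUN and FOSL1 overlapped more than 1 shRBBP4 region. EGR1 had covered sequence downstream of the start in shNT alone.

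The genes thus fell in the same order of covered length in both libraries, FOSL1 highest, then MYC, JUN, JUNB, EGR1 and FOS. Among 20-kb tiles with any region of the library, FOSL1 stood at percentile 99.32 in shNT and 99.76 in shRBBP4, MYC at 98.01 and 99.55, and JUN at 97.31 and 98.91. JUNB stood at 74.31 and 91.26, and EGR1 at 63.87 and 50.88. The FOS window stood at percentile 12.53 in shRBBP4. The tiles start at fixed positions and are not centred on starts, and neighbouring values cannot be ordered beyond error with 1 library per shRNA.

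The uncalled stretch that held the start was similar in both libraries at JUN, 521 bp in shNT and 525 bp in shRBBP4. At MYC it was 732 and 496 bp, and at FOSL1 2762 and 891 bp. At JUNB shRBBP4 left 1059 bp uncalled, and shNT had no upstream region to close the stretch. At EGR1 shNT left 1334 bp uncalled, and shRBBP4 had no downstream region.

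Most called sequence lay downstream of the starts, 8.39 of 10.1 kb in shNT and 11.96 of 16.1 kb in shRBBP4. Upstream the genes had 1.69 kb in shNT and 4.15 kb in shRBBP4. In the kilobase before the start, 15.2% of the bases of the 6 genes were called in shNT, at JUN, EGR1 and MYC. In shRBBP4 it was 29.2%, at all 6 genes, with the calls at FOS, FOSL1 and JUNB at percentiles 11.5, 17.7 and 51.8. In the kilobase after the start, the shares were 36.3% at 5 genes in shNT and 41.3% at 4 in shRBBP4. Starts of other genes were not placed, so no share over other genes stands beside these counts. From 1 to 2 kb downstream the shares were 53.7% and 50.5%, the nearest to each other of the downstream bins. From 3 to 4 kb downstream they were 7.6% and 38.1%. Among the bins, the largest gap between the libraries was thus from 3 to 4 kb downstream and not next to the start. In shRBBP4, 1 MYC region, from 2287 to 4138 bp (percentile 61.2), spanned that whole bin. The calls of JUN, JUNB and FOSL1 there stood at percentiles from 6.8 to 79.6. Other genes and lists of equal length were not profiled by distance.

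**Figure D3:**
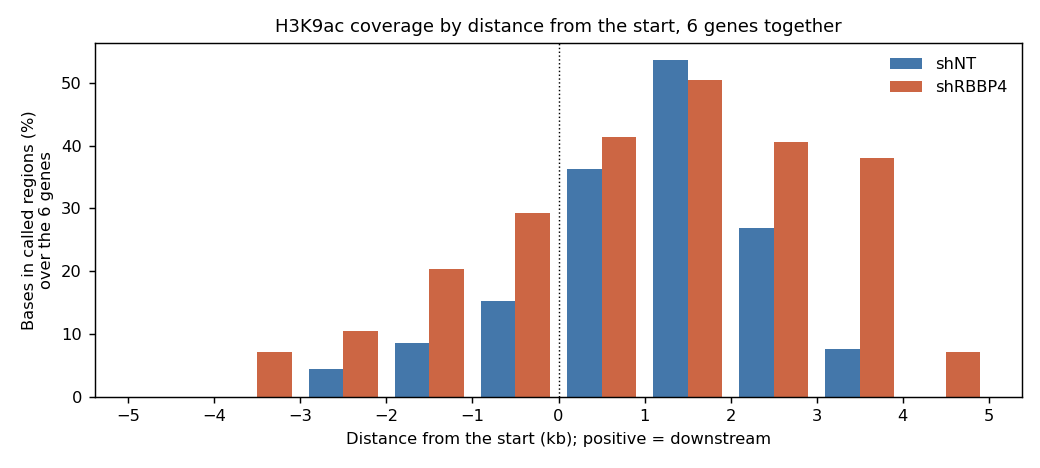
Share of bases in called H3K9ac regions (%) in 1-kb bins by distance from the start (kb, positive in the direction of transcription), over the 6 genes together, for shNT (blue) and shRBBP4 (orange). Downstream, the bars of the libraries are closest from 1 to 2 kb, at 53.7% and 50.5%, and farthest apart from 3 to 4 kb, at 7.6% and 38.1%.

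By an overlap of at least 1 bp, most regions at these genes had a counterpart in the other library. With reciprocal overlap of 50% the shares were 52.0% in shNT and 31.7% in shRBBP4. The whole lists were not counted by that rule, so these lower shares cannot be read as particular to the genes. By the 1-bp rule, in shNT, 22 of 25 regions overlapped an shRBBP4 region (88.0%, exact Clopper-Pearson 95% interval 68.8 to 97.5), against 77.0% over the whole list. In shRBBP4, 26 of 41 overlapped an shNT region (63.4%, 46.9 to 77.9), against 50.04% over the whole list. Both intervals include the value of the whole list. They cover counting error only and treat regions of the same gene as independent, which they are not. By bases, 82.8% of the shNT sequence at the genes was covered in shRBBP4, against 69.7% over the whole list, and 51.8% of the shRBBP4 sequence was covered in shNT, against 46.1%. The 3 shNT regions without a counterpart were the one nearest to the JUNB start and the downstream pair at EGR1.

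Covered length was higher in shRBBP4 at 5 of the 6 genes, FOS included, and lower at EGR1. Without FOS, which had no shNT region and so no place among the tiles with regions of both lists, it was higher at 4 of 5. In the higher-scoring 50% of each list EGR1 turned, with 603 bp in shRBBP4 and no region in shNT, and so did JUN, with 2115 bp in shRBBP4 and 2360 bp in shNT. FOS had no region in lists of equal length. Among the 5 genes with regions in both libraries, 4 were at least 1.5 times higher in shRBBP4 and 0 at least 1.5 times lower, with a median ratio of 1.57. The count of 4 depended on the setting. It was 1 (MYC) in lists of equal length, 2 in the higher-scoring 50% of each list, 2 with joined regions and 1 within 2 kb of the start. Tiles were not counted under these settings. Of 9969 tiles of 20 kb with regions of both lists, 42.5% were at least 1.5 times higher, 9.04% at least 1.5 times lower and 73.2% higher by any amount, with a median ratio of 1.36. JUN, FOSL1, MYC and JUNB stood at percentiles 58.6, 60.8, 66.8 and 71.5 of the tiles by this ratio, and EGR1 at 14.9. All 5 ratios were inside the bulk of the tiles.

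**Figure D4:**
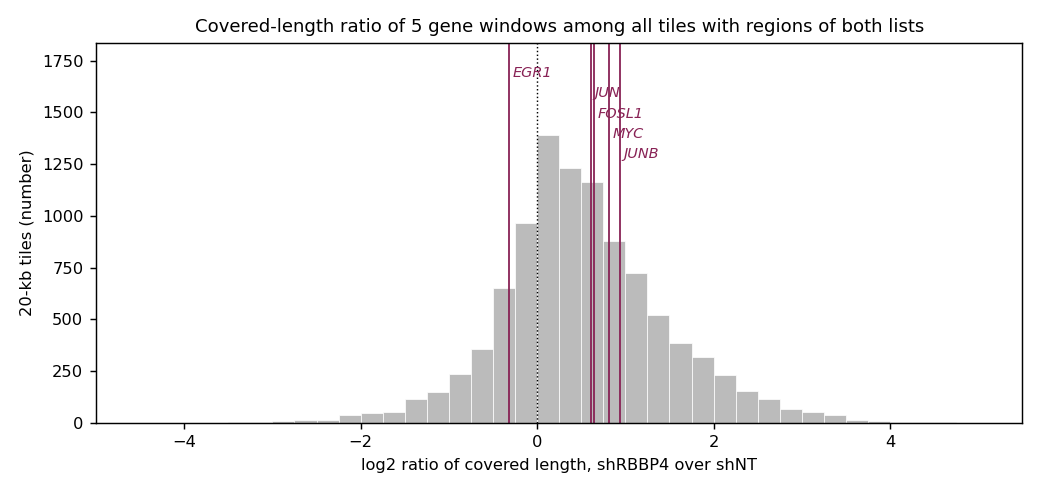
Number of 20-kb tiles with regions of both lists by the log2 ratio of covered length, shRBBP4 over shNT, with lines at the ratios of the 5 gene windows called in both libraries. EGR1 lies at -0.32, and JUN, FOSL1, MYC and JUNB lie between 0.61 and 0.94, all within the main body of the distribution.

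The covered-length ratio within 1 Mb on either side, without the gene window, was close to that of the window at JUN, JUNB and MYC. It was 1.56 around JUN, 2.05 around JUNB and 1.99 around MYC, against 1.52, 1.92 and 1.75 in their windows. Around FOSL1 it was 1.27 and around EGR1 1.22, against 1.57 and 0.80. Which genes matched their surroundings depended on the reach. Within 100 kb it was 1.61 around FOSL1, 0.93 around EGR1, 1.33 around JUN, 1.89 around JUNB and 1.58 around MYC. Around FOS the ratio within 1 Mb was 4.64, the highest of the 6, with 57 regions in shRBBP4 and 13 in shNT. Within 100 kb of FOS, outside the window, shNT had no region and shRBBP4 had 3, so there was no ratio. For whole chromosomes the ratio was 2.45 on chromosome 14 (FOS), 1.80 on 19 (JUNB), 1.55 on 5 (EGR1), 1.41 on 11 (FOSL1), 1.30 on 1 (JUN) and 1.07 on 8 (MYC). The part that these broader differences have in the values of the genes was not tested, and a difference in depth between the libraries cannot be told apart from one in acetylation.

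**Figure D5:**
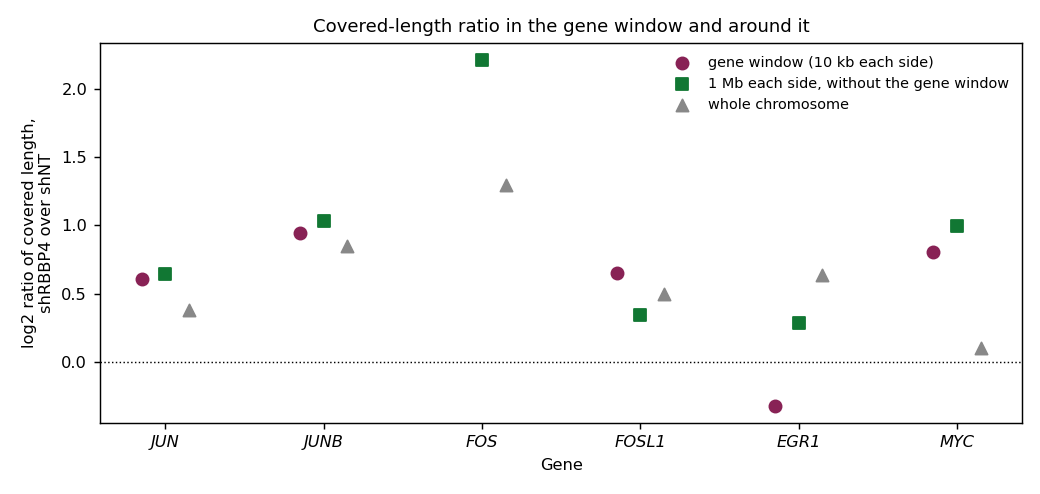
log2 ratio of covered length, shRBBP4 over shNT, in the window of each gene (circles), within 1 Mb on either side without the window (squares) and on the whole chromosome (triangles). FOS has no circle, because shNT had no region there, and EGR1 alone has a circle below 0.

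By rank within the lists, the best region stood higher in shRBBP4 at 2 of the 5 genes with regions in both libraries. The count was 4 with 25 kb on each side, where it turned at JUNB and FOSL1, and 1 in the higher-scoring 50% or by width. In the higher-scoring 50%, EGR1 had no shNT region and so could not be counted. With 10 kb, the best region was at percentile 89.8 in shNT and 93.9 in shRBBP4 at JUN, and at 47.2 and 77.9 at EGR1. It stood lower in shRBBP4 at JUNB, with 87.8 and 83.2, and at FOSL1, with 97.8 and 79.6. At MYC both printed values were 98.9. Ranks in lists of unequal length do not measure a change. With the shRBBP4 list cut to its 26828 highest-scoring regions, the best percentiles there were 91.0 for JUN, 75.5 for JUNB, 70.2 for FOSL1, 67.6 for EGR1 and 98.3 for MYC, and FOS had no region.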

How the data were processed

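H3K9ac ChIP-seq libraries of T98G cells with shNT or shRBBP4 (1 each) were analysed. The 2 input libraries were not analysed here. The deposited files list regions called per library, with a chromosome, start, end, name and score. The score is the authors' value and its scale is not stated, per the file headers. Both headers name macs2 and PE, whereas the submitters' processing notes name bcl2fastq 2.15.0, BWA, Picard, SICER, GRCh37 and hg19. The caller, threshold and use of input are therefore not settled here.

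Gene starts on hg19 were given with the choice of genes. The genes, lists and comparisons were chosen with earlier results of these data known. All 6 genes are named. Strand came from the RefSeq promoter table (GRCh38.p14) for 4 genes and from textbook knowledge for FOSL1 and MYC. Neighbouring genes were taken from that build by name and order alone. Other immediate early genes were not placed, for want of hg19 annotation, and exon or intron class was not assigned. Starts of regions were counted from 1. Regions overlapping a window by 1 bp were counted, and covered length was clipped to the window. Percentiles use mean ranks for ties. Depth is unknown, so precision of single calls is too. Interval functions were tested on simulated lists. Alternatives were other windows, score limits, overlap rules, joined regions and other tiles. Scripts ran on Python 3.11.15 with scipy 1.17.1, pandas 2.3.3, numpy 2.4.6 and matplotlib 3.10.9.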

Additional observations from a re-analysis of the deposited data

How the results depend on the processing

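No paired analysis was possible because each shRNA has 1 H3K9ac library. Of 83 values under other settings, 70 stayed within the limits set for them, 3 changed side and 10 moved beyond them. The covered-length ratio of JUN was 0.896 in the higher-scoring 50% of each list. With 2 kb on each side it was 0.992 for FOSL1 and 1.16 for EGR1, fewer bases by construction. With reciprocal overlap of 50%, 52.0% of shNT and 31.7% of shRBBP4 regions at the genes were shared, and within 1 kb 85.4% of the shRBBP4 regions were. The whole lists were not counted by either rule. Covered length was at least 1.5 times higher in shRBBP4 at 1 gene with 2 kb on each side, at 2 in the higher-scoring 50%, at 1 in lists of equal length and at 2 with joined regions. The best region ranked higher in shRBBP4 at 4 genes with 25 kb on each side, at 1 gene in the higher-scoring 50%, and at 1 gene by width. In the higher-scoring 50%, EGR1 left this count by construction, for want of an shNT region to rank. Apart from the constructions named, the cause was not tested. FOS had no shRBBP4 region in lists of equal length or in the higher-scoring 50%, so its call rests on the weak end of the list, and EGR1 had no shNT region in the higher-scoring 50%, which gave no ratio for it there and turned its direction. The tiles shifted by 10 kb were chosen after seeing the data. Unknown depth limits every comparison of calls.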
